A study of Mus musculus with 4 samples.

Results

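The p53 gene Trp53 and 8 genes tied to it were followed on arrays of 4 L1210 cell lines. These were the 2 inhibitors of p53, Mdm2 and Mdm4, and 6 further targets, Ccng1, Phlda3, Zmat3, Trp53inp1, Sesn1 and Aen. Members were chosen by gene symbol, and every probe in the deposited table that carried one of these symbols was used. This gave 12 probes for 9 genes, of 24561 gene symbols and 55681 probes on the array.

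L1210 is a mouse lymphocytic leukemia line, given in the labels as DBA subline 212. Cells were infected with lentivirus per the labels (the study also speaks of retrovirus) and sorted for the green fluorescent protein GFP, which gave the stable lines L1210-Fbxw11a, L1210-Fbxw11c and L1210-Fbxw11d, each overexpressing 1 splice variant of Fbxw11, and the GFP-sorted line L1210-control. Fbxw11 encodes an F-box protein, the part of a ubiquitin ligase that picks the proteins to be degraded; per the study's methods and text, Fbxw11a is the full-length form, Fbxw11c lacks exon 2, and Fbxw11d lacks exons 2 and 3. The cells keep their own Fbxw11 gene, no drug was given, and the labels do not say what the control virus carried. Total RNA of each line was labelled with the dye Cy3 and read on 1 single-colour Agilent array, so each value below rests on 1 sample and differences between lines carry neither a replicate check nor a p-value.

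p53 is a transcription factor that is held at a low level in unstressed cells because Mdm2 binds it and marks it for degradation, while Mdm4 binds it and blocks its activity. After DNA damage or other stress, p53 escapes this control, binds pairs of short half-sites in DNA and raises the transcription of genes for cell cycle arrest, repair, metabolism and cell death. Mdm2 and Ccng1 are themselves targets that feed back on p53. Since p53 is regulated largely at the level of the protein, the amount of its mRNA and the amount of active p53 are separate quantities, and only mRNA was measured here.

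The sequence that p53 recognises was looked for first in the promoters, because it is the feature that the target genes have in common. Promoters of 300 bases, from 250 before to 50 after the annotated start, were taken from RefSeq (build GRCm38.p6) and were given for 7 of the 9 genes; Zmat3 and Trp53inp1 were not matched. The p53 half-site motif, 10 bases long and read on both strands, which are equivalent for this palindromic motif, occurred in the promoter of 5 of these 7 genes, Trp53, Mdm2, Ccng1, Sesn1 and Aen. Among all 27025 genes with a promoter in the table, 2582 (9.55%) held one. A pair of half-sites with up to 13 bases between them, each with up to 1 mismatch outside the central C and G, was found for Ccng1 alone among the 7, against 835 (3.09%) of all genes. A match is a description of the letters and not a measured binding site, and no match in a window of this size leaves the rest of the gene unread. The 5 stretches of 60 bases are shown 5′ to 3′ on the gene's strand, with half-sites in capitals (for Ccng1, both half-sites of the pair).
Trp53, chr11:69580259-69580318, + strand: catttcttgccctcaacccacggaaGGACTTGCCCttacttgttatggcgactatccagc
Mdm2, chr10:117710910-117710969, - strand: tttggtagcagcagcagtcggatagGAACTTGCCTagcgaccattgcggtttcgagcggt
Ccng1, chr11:40755437-40755496, - strand: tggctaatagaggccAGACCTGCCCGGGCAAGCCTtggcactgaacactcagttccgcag
Sesn1, chr10:41887241-41887300, + strand: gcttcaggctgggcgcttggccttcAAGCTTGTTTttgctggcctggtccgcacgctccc
Aen, chr7:78895912-78895971, + strand: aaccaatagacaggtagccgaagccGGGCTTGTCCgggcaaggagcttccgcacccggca
Counted from the annotated start, the first base of the half-site lay at -75 in Trp53, -186 in Mdm2, -173 in Sesn1 and 10 in Aen, while in Ccng1 the pair began at -195 and -185 with no base between. Aen and Sesn1 each had 2 annotated starts in the table: the Aen half-site lay at -121 from the other start, and the other Sesn1 promoter held none.

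Each line's mRNA was measured with probes of 60 bases, whose positions are given here in build mm9 as in the deposited files. Mdm4, Trp53inp1 and Aen had 2 probes each and the other genes 1. The first 30 bases of the paired probes are shown because the results below turn on whether both probes of a gene moved alike.
Mdm4 brighter probe, from base 1445 of its transcript: acagatattttttctgagcagaaagctgaa
Mdm4 second probe, from base 3426: gacccattaagctctgtttacagccttgaa
Trp53inp1 brighter probe, from base 5041: gtgtgtttatgggcacaatgttttctctca
Trp53inp1 second probe, from base 659: aactcctgtcctggtctcagtgaggcgagt
Aen brighter probe, from base 2067: AAGTCAGCTTGCTCATAGTAccagaccatc
Aen second probe, from base 2057: ttactgggagAAGTCAGCTTGCTCATAGTA
Capitals mark the stretch that both Aen sequences share. The Aen probes overlap in 50 of their 60 bases and so read 1 place in the transcript, while the probes of Mdm4 and Trp53inp1 lie apart and give separate readings.

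On every array all 12 probes were well above background, and none of their spots was flagged as an outlier or saturated. Signals are given below in intensity units on the scale of the control array, after each array was divided by its own 75th percentile. The ± after a signal is the scanner software's error of the spots, about 10% of the signal for the 11 probes with 1 spot. For a log2 ratio between lines this error came to between 0.204 and 0.209, and to 0.145 for Trp53, whose probe was printed on 2 spots. Probes printed on 10 spots gave a smaller spread: the median SD of their log2 ratio in L1210-Fbxw11a was 0.13 at signals of 100 to 300 and 0.046 above 3000, and in L1210-Fbxw11d it was 0.15 and 0.081. Neither error includes differences between cultures, sorts or RNA preparations. As the scanner error of a ratio was nearly the same for all probes with 1 spot, 2 errors acted as a nearly fixed cut and not as a test. The share of all genes beyond 2 scanner errors was not counted. Levels of different genes are not compared, since probes differ in how well they bind.

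The arrays of the control, Fbxw11a and Fbxw11c lines shared slide 1, and the Fbxw11d array was alone on slide 2, so that slide and variant cannot be told apart for this line. Its 75th percentile was 952, against 621, 628 and 672 on the other arrays. Without scaling every log2 ratio of this line would be 0.62 higher, and the median of all genes would lie at 0.66 in place of 0.048; centring on the median moves it to 0.26. The 8 probes for spike-in RNA differed from the control array by 0.034 ± 0.090 (SD) in L1210-Fbxw11d without scaling and by -0.58 with it; on the slide shared with control they differed by 0.15 ± 0.062 in L1210-Fbxw11a and 0.27 ± 0.097 in L1210-Fbxw11c without scaling, and by 0.13 and 0.16 with it. Changes in L1210-Fbxw11d are therefore given relative to the bulk of genes. The array did not show the overexpression, as the 2 Fbxw11 probes had log2 ratios of only 0.030 to 0.31 in the 3 lines. The study verified it by real-time RT-PCR and western blotting. Whether the 2 probes read the introduced variants was not tested. As to cell type, the pan-leukocyte marker Ptprc was well above background on all 4 arrays, as were 4 of 7 B lineage, 4 of 6 T lineage, 4 of 6 myeloid and 2 of 4 stromal markers. Ebf1, Rag1 and Cd79b of the B lineage, Cd3g and Thy1 of the T lineage and the myeloid gene Lyz2 were not on any.

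With the arrays scaled, Trp53 itself was highest in L1210-Fbxw11a, and its levels in the other 3 lines lay within the error of one another; without scaling it was as high in L1210-Fbxw11d, at a log2 ratio of 0.72 against 0.68. Its signal was 305 ± 21.7 in L1210-control and 485 ± 34.3, 297 ± 21.1 and 327 ± 23.2 in the lines with Fbxw11a, Fbxw11c and Fbxw11d. The log2 ratio to control was 0.67 in L1210-Fbxw11a, a 1.59-fold higher level, which was beyond 2 scanner errors and above the 95th percentile of all genes in that comparison (0.55). Both spots of the probe gave this difference, with log2 ratios of 0.67 and 0.66. In L1210-Fbxw11c the log2 ratio was -0.041, with spots at 0.13 and -0.21, and in L1210-Fbxw11d it was 0.10. These last 2 values were within 1 scanner error, and each turned sign under another setting: the first to 0.026 with median centring and 0.073 without scaling, and the second to -0.030 with normexp background correction. Between the variant lines, Trp53 in L1210-Fbxw11a exceeded L1210-Fbxw11d, the next line in order, by 0.57 on the log2 scale, but by 0.36 with median centring and by -0.032 without scaling, where the order turned. The 3 lower lines could not be ordered beyond their error on the scaled signals. The probe lies at chr11:69404204-69404263 on the + strand, from base 1187 of the transcript.

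**Figure D1:**
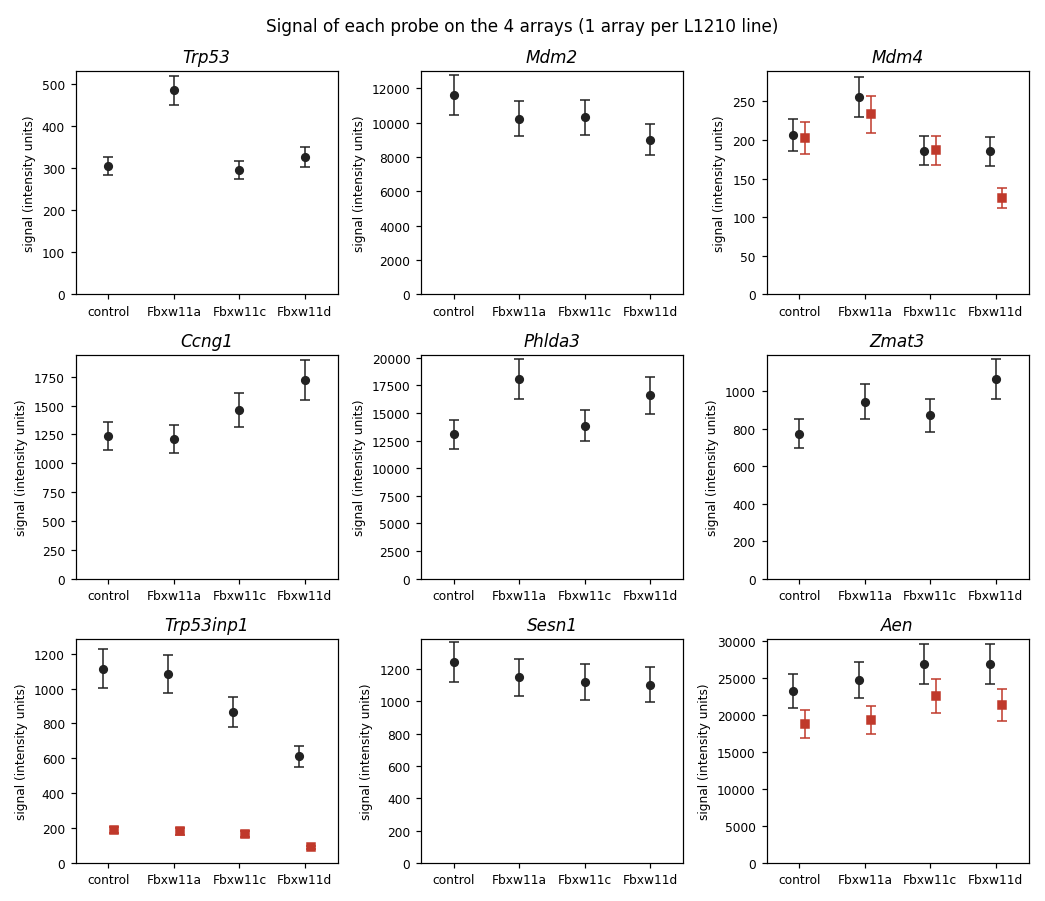
Signal of each probe (vertical axis, intensity units on the scale of the control array, starting at 0) in the 4 L1210 lines (horizontal axis), 1 panel per gene. Black circles are the brighter or only probe, red squares the second probe, and bars the scanner error; Trp53 stands out in Fbxw11a at 485, and both Trp53inp1 probes are lowest in Fbxw11d.

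Mdm2, the ubiquitin ligase that degrades p53 and is also its target, had signals of 11620 in L1210-control and 10225, 10304 and 9014 in the lines with Fbxw11a, Fbxw11c and Fbxw11d. Its log2 ratios were -0.18, -0.17 and -0.37, so the control was the highest line, but no gap between neighbouring lines exceeded the scanner error. Against control, only L1210-Fbxw11d was beyond 1 scanner error. Its value was beyond 2 errors with quantile normalization (-0.47) and with the deposited values (-0.44). It was smaller with normexp (-0.23) and median centring (-0.155), and turned to 0.25 without scaling. The Mdm2 probe lies at chr10:117126010-117126069 on the - strand, from base 2918 of the transcript.

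Mdm4, a relative of Mdm2 that blocks p53 without degrading it, gave different answers from its probes in 1 line. The brighter probe (chr1:134888407-134888466, - strand) read 207 in L1210-control and 256, 186 and 185 in the lines with Fbxw11a, Fbxw11c and Fbxw11d. The second (chr1:134886426-134886485, - strand) read 203, 233, 187 and 125 in the same order. On both, after scaling, L1210-Fbxw11a was the highest line, with log2 ratios of 0.31 and 0.20, and L1210-Fbxw11c was below control by less than 1 scanner error. In L1210-Fbxw11d the brighter probe stood at -0.16, within its error, and the second at -0.70, a 1.62-fold lower level beyond 3 times its error of 0.207. The brighter probe's value there turned to 0.056 with median centring and to 0.46 without scaling, the latter above the 0.32 of L1210-Fbxw11a; on the second probe the unscaled signals were 203 in control and 192 in L1210-Fbxw11d. The 2 probes lie at different places in the transcript, and which of them follows the amount of Mdm4 mRNA was not tested.

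Ccng1 encodes cyclin G1, a target that feeds back on p53 through Mdm2, and its promoter carries the pair of half-sites shown above. Its signal was 1237 in L1210-control and 1208, 1463 and 1726 in the lines with Fbxw11a, Fbxw11c and Fbxw11d (probe at chr11:40562427-40562486, - strand, from base 3054). The log2 ratios were -0.034, 0.24 and 0.48. Only the value of L1210-Fbxw11d was beyond 2 scanner errors, and it was below the 95th percentile of all genes in that line (0.56). The level in L1210-Fbxw11a was within 1 error of control.

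Phlda3, which competes for membrane lipids with the survival kinase Akt, was lowest in the control. It read 13074 ± 1307 in L1210-control and 18041 ± 1804, 13863 ± 1386 and 16591 ± 1659 in the lines with Fbxw11a, Fbxw11c and Fbxw11d (chr1:137665642-137665701, + strand, from base 1397). With log2 ratios of 0.46, 0.085 and 0.34, only L1210-Fbxw11a was beyond 2 scanner errors, and this line and L1210-Fbxw11d did not differ from each other beyond their error. With median centring L1210-Fbxw11d was at 0.56, also beyond 2 errors and above the 0.47 of L1210-Fbxw11a, and without scaling it was at 0.96. Besides Trp53, Phlda3 was the only one of the 9 genes beyond 2 scanner errors in L1210-Fbxw11a. The Phlda3 value there lay below the 95th percentile of all genes in that comparison (0.55).

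Zmat3, a zinc finger protein that binds RNA, was also lowest in the control. Its signals were 775 in L1210-control and 946, 872 and 1064 in the lines with Fbxw11a, Fbxw11c and Fbxw11d, with log2 ratios of 0.29, 0.17 and 0.46 (chr3:32233831-32233890, - strand, from base 7607). The value of L1210-Fbxw11d was beyond 2 scanner errors (though not with normexp, at 0.37) but below the 95th percentile of all genes (0.56). That of L1210-Fbxw11a was beyond 1 error, and no gap between neighbouring lines exceeded the error.

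Trp53inp1 encodes a stress protein that takes part in p53-dependent cell death and in autophagy. On the scaled signals it had the largest differences among the 9 genes. This ranking was lost with median centring and without scaling. In L1210-Fbxw11d Ccng1 then stood at 0.69 and 1.1, against -0.65 and -0.25 for the brighter Trp53inp1 probe. The brighter probe (chr4:11101174-11101233, + strand) read 1114 ± 112 in L1210-control and 1084 ± 108, 867 ± 86.8 and 611 ± 61.2 in the lines with Fbxw11a, Fbxw11c and Fbxw11d. The second (chr4:11092530-11092589, + strand) read 188 ± 19.2, 180.0 ± 18.3, 166 ± 16.9 and 88.3 ± 9.07. Both probes thus put the lines in the same order, with L1210-Fbxw11d lowest. For that line the log2 ratios were -0.87 (1.82-fold lower) and -1.09 (2.13-fold lower), both beyond 4 times their scanner errors, and the brighter probe was below the 5th percentile of all genes (-0.80). They were -0.36 and -0.18 in L1210-Fbxw11c and -0.040 and -0.065 in L1210-Fbxw11a, so L1210-Fbxw11a and control did not differ beyond the error. The value of the brighter probe in L1210-Fbxw11d was -0.65 with normexp background correction or with median centring, and -0.25 without scaling, where it was the lowest of the 9 genes as well; the unscaled signals of the second probe were 188 in control and 135 in L1210-Fbxw11d.

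Sesn1 and Aen varied least on the scaled signals. Sesn1, a stress protein that restrains the growth kinase mTORC1, read 1242 in L1210-control and 1148, 1118 and 1104 in the lines with Fbxw11a, Fbxw11c and Fbxw11d (chr10:41628012-41628071, + strand, from base 2951). Its log2 ratios of -0.11, -0.15 and -0.17 were all within 1 scanner error, and that of L1210-Fbxw11d turned positive with median centring and without scaling. Aen, a nuclease that acts in apoptosis, read 23250, 24779, 26949 and 26963 by its brighter probe (chr7:86053207-86053266, + strand) and 18848, 19326, 22591 and 21356 by the second (chr7:86053197-86053256, + strand). Its log2 ratios lay between 0.036 and 0.26 over both probes, and no value was beyond 2 scanner errors, though the brighter probe in L1210-Fbxw11d was with median centring (0.43) and without scaling (0.83).

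**Figure D2:**
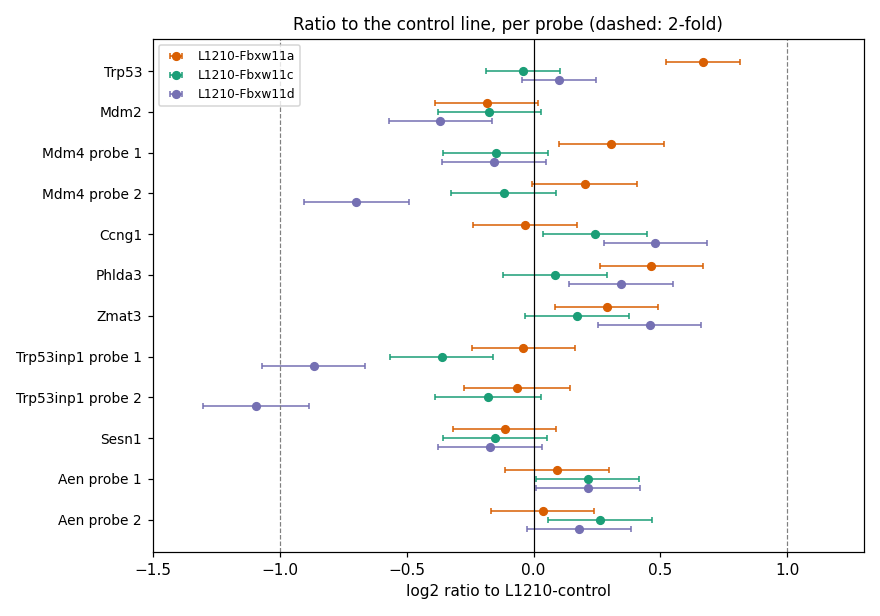
Log2 ratio to L1210-control (horizontal axis) of each of the 12 probes (vertical axis) in the 3 variant lines (colours), with the scanner error as bars and dashed lines at 2-fold. Trp53 in Fbxw11a lies apart at 0.67, and only the second Trp53inp1 probe in Fbxw11d crosses a dashed line, at -1.09.

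Set side by side, the 9 genes did not move as 1 group. Phlda3, Zmat3 and Aen were above control in all 3 lines; Mdm2, Trp53inp1 and Sesn1 were below it in all 3, with the exceptions that Mdm2 and Sesn1 turned positive in L1210-Fbxw11d without scaling and Sesn1 also with median centring; Trp53, Mdm4 and Ccng1 were above in some lines and below in others, except that Trp53 was above control in all 3 with median centring and without scaling. Of all 16249 genes well above background on the 4 arrays, 27.8% were above control in all 3 lines and 20.6% below it. The 3 ratios of a gene share 1 control array, so a high or low control value moves all 3 together. On the scaled signals the highest line was L1210-control for Mdm2, Trp53inp1 and Sesn1, L1210-Fbxw11a for Trp53, Mdm4 and Phlda3, and L1210-Fbxw11d for Ccng1, Zmat3 and Aen, where Aen did not differ from L1210-Fbxw11c beyond its error. This order depended on the scaling: L1210-Fbxw11d was the highest line for 5 of the 9 genes with median centring, which added Phlda3 and Sesn1, and for 8 without scaling, all but Trp53inp1.

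By the study's 2-fold threshold none of the 9 genes was called in any of the 6 pairs of lines. Among all genes compared, the share called against control was 4.44%, 3.87% and 5.78% in the lines with Fbxw11a, Fbxw11c and Fbxw11d. Between variant lines it was 4.23% for Fbxw11a against Fbxw11c, 5.97% for Fbxw11a against Fbxw11d and 4.22% for Fbxw11c against Fbxw11d. Counted over probes, 1 of the 12, the second Trp53inp1 probe, was past 2-fold in L1210-Fbxw11d, where 6.95% of all probes were; none was in L1210-Fbxw11a (5.13% of all) or L1210-Fbxw11c (4.46%). At 1.5-fold, Trp53 was the 1 gene of the 9 called in L1210-Fbxw11a, where 10.8% of all genes were called, and Trp53inp1 was the 1 called in L1210-Fbxw11d, where 14.7% were. At that threshold L1210-Fbxw11c had no call among the 9, with 9.86% over all genes. With so few genes, counts of 0 or 1 are near the background share. Without scaling, Ccng1 and Zmat3 in L1210-Fbxw11d passed 2-fold upward, at 1.1 and 1.07 on the log2 scale, where 13.9% of all genes passed and 2223 of these 2558 were higher.

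The median log2 ratios of the 9 genes were 0.092, -0.041 and 0.10 in the lines with Fbxw11a, Fbxw11c and Fbxw11d, beside 0.0050, 0.021 and 0.048 over all genes. In size regardless of sign, the median was 0.18, 0.17 and 0.34 for the 9 genes and 0.14, 0.14 and 0.21 for all genes. Of the 9 values, 5, 4 and 5 were above 0 in the 3 lines. In L1210-Fbxw11d this split was 7 of 9 with median centring, 8 of 9 without scaling and 4 of 9 with normexp, while the median of the 9 genes lay 0.052 above that of all genes with the 75th percentile, 0.091 above it with quantile normalization, 0.094 with the deposited values, and 0.040 below it with normexp. Median centring and no scaling leave this gap as it is by construction.

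**Figure D3:**
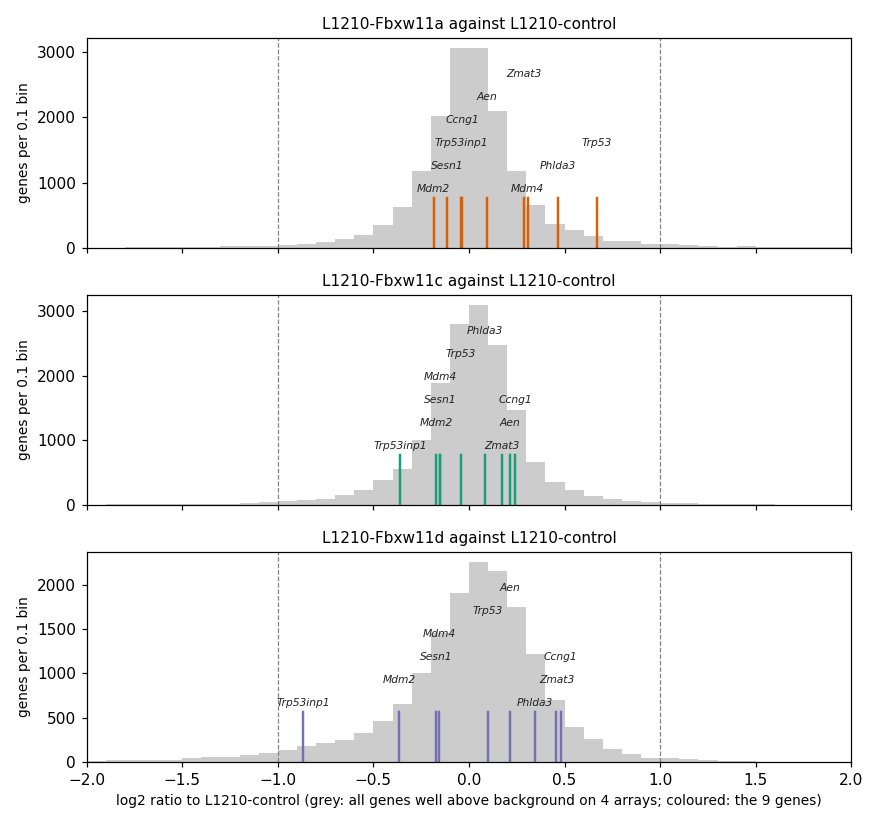
Number of genes (vertical axis) per bin of 0.1 in log2 ratio to L1210-control (horizontal axis) for the 16249 genes well above background on all arrays, in grey, with the 9 genes as coloured lines and dashed lines at 2-fold. The 9 genes lie on both sides of 0 in each of the 3 lines; Trp53 at 0.67 is the furthest to the right in Fbxw11a and Trp53inp1 at -0.87 the furthest to the left in Fbxw11d.

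**Figure D4:**
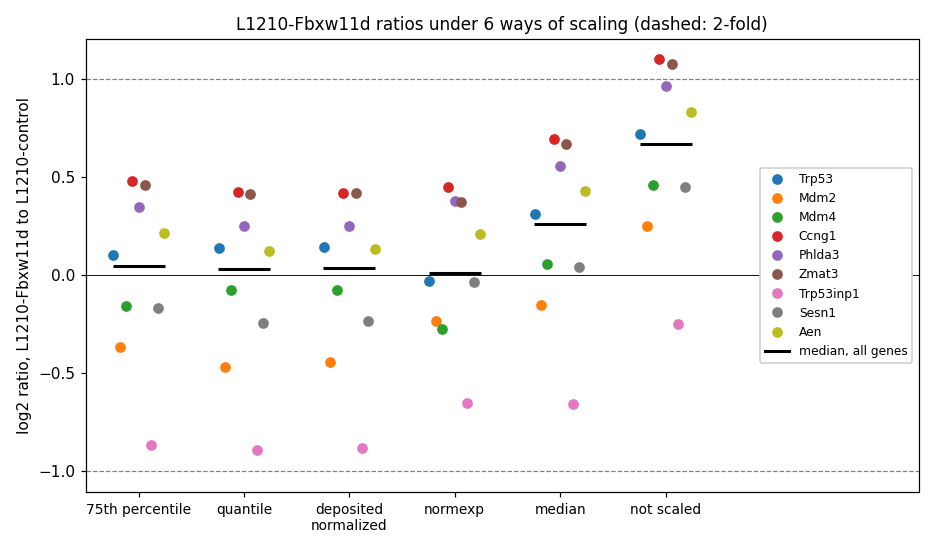
Log2 ratio of L1210-Fbxw11d to L1210-control (vertical axis) for the 9 genes (coloured points) under 6 ways of scaling or background correction (horizontal axis), with black bars for the median of all genes and dashed lines at 2-fold. From the 75th percentile to median centring and to no scaling the points shift together with the bar, which moves from 0.048 to 0.26 and 0.66, and Trp53inp1 is the lowest of the 9 under each.

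Genes whose 3 log2 ratios were most like those of Trp53, by Euclidean distance among 16248 other genes, were Fgf18, Syt8, A930019D19Rik, Rab27b and Timp2, at distances of 0.037 to 0.092. As many as 50 genes lay within 0.2 of it. Trp53inp1 had the largest sum of squared ratios of the 9 genes on the scaled signals. It lost this rank with median centring and without scaling, where Ccng1 in L1210-Fbxw11d stood at 0.69 and 1.1. The genes nearest to Trp53inp1 included 1700113A16Rik, Prr7, Gm4117 and F830208F22Rik, at 0.046 to 0.11, and 39 genes lay within 0.2. None of these neighbours belongs to the p53 lists used here, and likeness over 3 ratios that share a control is a description only.

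The wider pathway was read from a list of 95 other genes, made up of kinases and sensors upstream of p53, regulators of the p53 protein, the p53 relatives Trp63 and Trp73, and further targets. All 95 were on the array, 82 of them well above background on every array and 7 on none. Past 2-fold were 1 of 85, 4 of 87 and 2 of 88 genes compared in the lines with Fbxw11a, Fbxw11c and Fbxw11d, or 1.18%, 4.60% and 2.27%, next to the 4.44%, 3.87% and 5.78% of all genes. The medians over the 82 genes were -0.0073, 0.021 and 0.073.

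Fas was the only gene of this list past 2-fold in all 3 lines. It encodes the death receptor through which the Fas ligand triggers apoptosis. Its signal was 780 in L1210-control and 186, 226 and 172 in the lines with Fbxw11a, Fbxw11c and Fbxw11d. All 3 variant lines thus lay far below the control, with log2 ratios of -2.07, -1.79 and -2.18, or 4.20-fold, 3.45-fold and 4.54-fold lower. Each of these compares with the same single control array and the same single probe.

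The other calls were few. Igfbp3, which binds insulin-like growth factors, read 31.0 in L1210-control, 21.2 in L1210-Fbxw11a and 15.4 in L1210-Fbxw11d, a log2 ratio of -1.01 in the last, and was not well above background in L1210-Fbxw11c, at least 2.08-fold lower. Cyfip2, a partner of the RNA-binding protein FMRP, was not well above background in control and read 52.3 in L1210-Fbxw11c, at least 2.89-fold higher. It was also well above background in L1210-Fbxw11d, at 22.6, where it was not called but passed 2-fold with the deposited values (1.48) and with no filter on dim probes (1.35). Ak1, an adenylate kinase, read 501 in L1210-control and 940, 1028 and 945 in the variant lines. Its log2 ratios of 0.91, 1.04 and 0.91 put all 3 variant lines above control, though only L1210-Fbxw11c passed 2-fold; L1210-Fbxw11d passed it too with median centring (1.13) and without scaling (1.53). With normexp these 4 calls were lost, at -0.41 and -0.71 for Igfbp3 in L1210-Fbxw11c and L1210-Fbxw11d, 0.55 for Cyfip2 and 0.95 for Ak1. Both Igfbp3 calls were also lost with the mean of its probes and with quantile normalization, median centring or no scaling. In the last 3 settings the value of L1210-Fbxw11c was still -0.98, -0.99 and -0.94, and that of L1210-Fbxw11d -0.80, -0.80 and -0.39. With the mean of its probes L1210-Fbxw11d was at -0.95 and L1210-Fbxw11c at 0. With the deposited values the Igfbp3 call held in L1210-Fbxw11c (-1.66) and was lost in L1210-Fbxw11d (-0.78). Fas stayed past 2-fold in all 3 lines under each alternative run.

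Cdkn1a, the cyclin-dependent kinase inhibitor p21, read 883, 808, 615 and 737 in L1210-control and the Fbxw11a, Fbxw11c and Fbxw11d lines by its brightest probe. The log2 ratios of this probe were -0.13, -0.52 and -0.26. A second, dim Cdkn1a probe stood at -0.068, 0.18 and -0.29, with the opposite direction in L1210-Fbxw11c. Gadd45a, a damage response gene, had log2 ratios of -0.45, -0.71 and -0.57. Of the 6 measured cell cycle targets, 4, 5 and 4 were below control in the 3 lines, as were 48.8%, 45.8% and 43.6% of all genes, with medians of -0.17, -0.39 and -0.28, the last of which would be above 0 without scaling, as 0.62 is then added to it. Among death-promoting genes of the Bcl2 family, Bbc3 (Puma) was at -0.54, -0.41 and -0.27, and Bax at -0.047, -0.16 and -0.35. Bid was at -0.13, -0.091 and 0.18, while Pmaip1 (Noxa) reached well above background on none of the arrays and was not compared. Without scaling, the values of Cdkn1a, Gadd45a, Bbc3 and Bax in L1210-Fbxw11d would likewise be above 0. The 15 measured cell death targets, Fas among them, had medians of -0.052, 0.040 and 0.0051.

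Among genes that act on p53, Cdkn2a, whose product Arf restrains Mdm2, had log2 ratios of 0.16, 0.26 and 0.20. Whether the Cdkn2a probe reads the Arf form was not tested. The 16 regulators of p53 protein had medians of 0.051, 0.10 and 0.12, and the 11 kinases and sensors 0.0015, 0.0080 and 0.079. Ppp1r13b, which directs p53 to death genes, was at 0.70 in L1210-Fbxw11a and at -0.067 and -0.073 in the other variant lines. Trp63 was at 0.011, 0.087 and -0.27 by its brightest probe and Trp73 at -0.032, -0.18 and 0.20, none near 2-fold. A second, dim Trp63 probe stood at -0.85 in L1210-Fbxw11d.

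The remaining genes named had the highest and lowest ratios among the 82 well above background on all arrays. Trp53inp2, the relative of Trp53inp1 that acts in autophagy, was at 0.89, 0.45 and 0.13. The membrane protein Perp, a cell death target, was at 0.17, 0.52 and 0.56, and the lipid transfer protein Pltp at 0.46, 0.33 and 0.92. Kitl, the ligand of the receptor Kit, was at 0.54, 0.55 and 0.048. The growth factor Csf1 was at -0.56, -0.60 and -0.29 by its brightest probe. The other Csf1 probes stood at -0.12, -0.32 and -0.16, and at -0.27, -0.32 and -0.13. Polh, a DNA polymerase that copies past damage, was at 0.092, -0.100 and -0.45. The 8 measured repair targets had medians between 0.022 and 0.024 in the 3 lines, and the 11 metabolic targets -0.076, -0.0098 and 0.18.

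**Figure D5:**
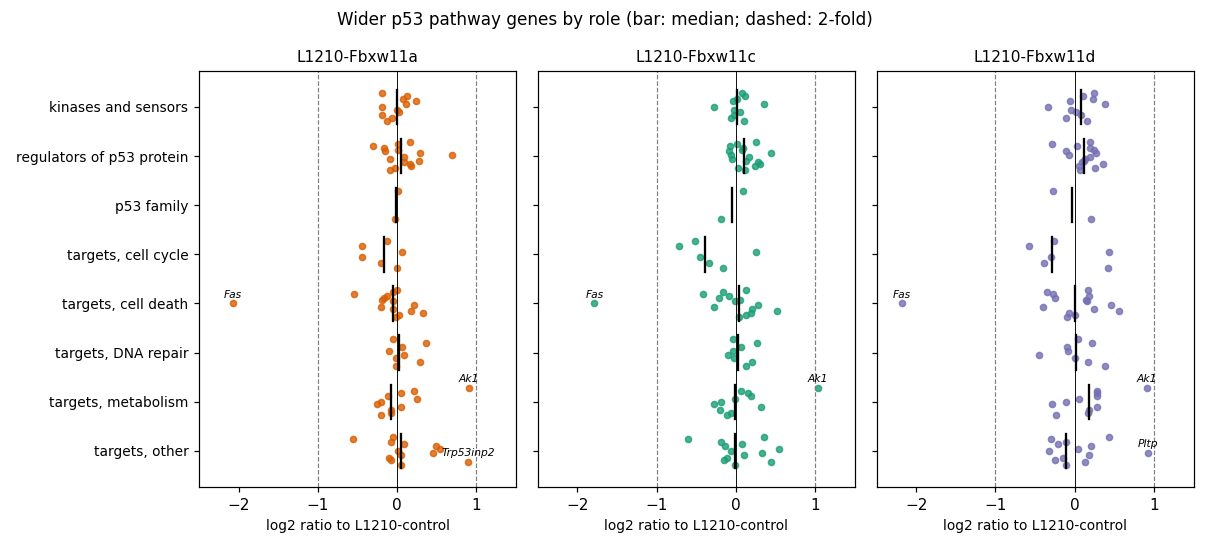
Log2 ratio to L1210-control (horizontal axis) for the 82 genes of the wider p53 list well above background on all arrays, grouped by role (vertical axis), 1 panel per variant line, with black bars for medians and dashed lines at 2-fold. Fas lies apart on the left in all 3 panels, between -2.18 and -1.79, and Ak1 is on the right, between 0.91 and 1.04.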

How the data were processed

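The authors scanned 4 Agilent single-colour mouse arrays with Feature Extraction (version 9.1 per the labels, a later version per the file headers) and deposited a background-corrected signal intensity, its error and flags for each spot. They also deposited a table of log2 values normalized across the arrays, by a method not given in the sources used here, with gene symbols. Here the intensity was taken as log2, the array's 75th percentile of gene spots was subtracted, outlier-flagged spots were dropped, and repeated spots were averaged. A gene was read from its brightest probe on average, and 2 arrays were compared if either had it well above background; on the other array the lowest signal well above background, or the probe's own if higher, then gave a bound. The threshold of 2-fold is the study's. Precision is limited by the number of arrays (1 per line), which allows no test across samples.

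The members and the wider list were chosen with earlier results of these data known. All probes of the 9 genes are named. Of the wider list, the rule named genes past 2-fold in all 3 lines and the 3 highest and 3 lowest per line. These extremes were taken from the 82 genes well above background on all arrays. The rule also named Cdkn1a, Bax, Bbc3, Fas, Cdkn2a, Trp63 and Trp73. For Trp53 and Trp53inp1 the 5 genes with the most similar ratios were to be named, of which 1 is not reported here. Igfbp3, Cyfip2, Bid and Pmaip1 lie outside this rule and were named after their values were seen. Alternatives were normexp (limma 3.58.1, offset 50), quantile normalization, median centring, the authors' deposited log2 values, flagged spots kept, the mean of a gene's probes, other filters on dim probes and folds of 1.5 and 3. A comparison without scaling was added after seeing the data. Python 3.11.15 (pandas 2.3.3, numpy 2.4.6) and R 4.3.3 were used.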

Additional observations from a re-analysis of the deposited data

How the results depend on the processing

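With 1 array per line, no alternative leaves out a replicate. No paired analysis was possible because each line has 1 array. None of the 9 genes passed 2-fold under normexp, quantile normalization, median centring, the deposited normalized values, flagged spots kept, the mean of a gene's probes or other filters on dim probes. A threshold of 1.5-fold called 1 gene in L1210-Fbxw11a and 1 in L1210-Fbxw11d, and leaving the arrays unscaled called 2 in L1210-Fbxw11d. The median of the 9 genes in L1210-Fbxw11d, 0.10 in the report, was 0.31 with median centring and 0.72 without scaling, which add a constant to all genes of that array, and -0.030 with normexp. Of the 27 single log2 ratios, 0 changed sign under quantile normalization, the deposited values, flagged spots kept or the mean of probes, 1 under normexp, 3 with median centring and 4 without scaling. Taking the mean of a gene's probes moved Mdm4 in L1210-Fbxw11d by 0.27, to -0.43. Of the wider list, 4 genes passed 2-fold in L1210-Fbxw11c, against 1 with normexp, 2 where both arrays had to be well above background and 1 at 3-fold. In L1210-Fbxw11d the count of 2 became 1 with normexp, quantile normalization or 3-fold, 5 at 1.5-fold, 6 with no filter on dim probes and 8 without scaling. In L1210-Fbxw11a the count of 1 became 4 at 1.5-fold. Where the text does not show a cause, the cause was not tested. The lowest signals well above background, 10.4 to 18.1 on the scale of the control array, set the bounds, and genes not well above background on either of 2 arrays were not compared.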
